A study of Mus musculus with 9 samples.

Results

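Egr1, Egr2, Egr3, Nr4a1, Nr4a2, Nr4a3, Arc, Npas4, Ier2 and Dusp1 are activity-regulated genes, whose transcripts appear within minutes to hours of a stimulus. The 10 genes were chosen by name, with earlier results of these data known. They came from the 18193 genes that had at least 1 probe set with a single gene symbol. They were represented by 19 of 34945 such probe sets, and the one whose mean signal over the 9 arrays was highest stood for its gene. Of the 10 genes, 7 passed the filter on dim signals and were tested among 12761 genes. Egr2, Nr4a3 and Arc lay below that filter, so that their levels are given as values.

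RNA came from the retinas of BALB/c females aged 10 weeks, an albino strain that the labels spell Babl/c, and was measured on Affymetrix mouse genome arrays with short probes near the 3' end of transcripts. The 7378K group lived for 14 days under white LEDs (light-emitting diodes) of a cool tint, with a colour temperature of 7378K, at 1000 lx. The 2954K group lived for the same 14 days under warm white LEDs of 2954K, also at 1000 lx. The control group was kept in a dark environment, for which no illuminance is given. All groups were labelled with 12 hours on and 12 hours off. Each array held a pool of 3 right retinas, with 3 pools per group, and the neurosensory layer had been separated from the pigment epithelium. Cool white LEDs emit a larger share of blue light than warm ones, and the comparisons ask what retinal transcripts did under each lamp. The time of day of dissection and the interval since the lamps were last on were not given in the sources used here. Both LED groups were set against the same 3 control pools, so that their differences from control are not independent of each other.

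Early response genes are switched on without new protein synthesis. Calcium entry and growth factor signals activate kinases, which phosphorylate the transcription factors CREB and Elk-1 already bound at these promoters, CREB at cAMP response elements (CREs) and Elk-1 together with serum response factor (SRF) at CArG boxes. The EGR proteins are zinc finger transcription factors and the NR4A proteins are orphan nuclear receptors that act without a known hormone. In the retina, EGR1 (also called ZENK) responds to light and defocus in amacrine cells, the inhibitory interneurons, and has been studied for its link to eye growth. The transcripts are short-lived, so that their level depends on when tissue is taken.

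Of the 10 genes, 1 passed a test: Egr3 rose by 1.64 ± 0.40 (log2, SE) in 7378K against control. Its adjusted p from limma was 0.0446, and 0.0764 with no filter on dim signals. Its control pools lay below that filter, which Egr3 passed through its LED arrays. The call held in 6 of 20 alternative settings of the processing, and the groups overlapped in a second Egr3 probe set. By the main probe set Egr3 was also higher in every 2954K pool than in every control pool, with a difference of 1.13 that missed the threshold. Egr1 had its highest mean in the 7378K group and its lowest in the 2954K group, and the difference between the lamps, 1.01 ± 0.25 on the log2 scale (SE), missed the threshold after adjustment. Nr4a2 was slightly higher in all 7378K pools than in all control pools, by 0.48 ± 0.15, and missed it too. Nr4a1, Npas4, Ier2 and Dusp1 did not pass in any comparison. Levels below are log2 of the deposited signal, a difference of 1 being a doubling, and a gene was called changed at a Benjamini-Hochberg adjusted p under 0.05 from a limma fit over all 12761 genes.

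Of the 7 tested members, 1 was called risen and 0 fallen in 7378K against control, where 3.52% of all genes tested were called, 2.36% as risen and 1.16% as fallen. In 2954K against control, 0 of 7 were called, against 1.22% of all genes. In 7378K against 2954K, 0 of 7 were called by limma, as were 0% of all genes, and 1 of 7 (Egr1) had an unadjusted p under 0.05, as had 4.07% of all genes. When the average of the LED groups was set against control, 0 of 7 were called, against 3.46% of all genes (2.41% risen, 1.05% fallen), and Egr3 had an adjusted p of 0.0501. In that comparison 1 of 7 (Egr3) had groups without overlap, against 10.5% of all genes (5.84% higher, 4.68% lower). At an unadjusted p under 0.05 the counts were 3 of 7 members (Egr1, Egr3 and Nr4a2) in 7378K against control, where 22.6% of all genes passed, 1 of 7 (Egr3) in 2954K against control, where 13.1% passed, and 2 of 7 (Egr3 and Nr4a2) for the LED mean, where 21.6% passed. The median log2 difference of the 7 members was 0.16 in 7378K against control, beside 0.04 over all genes, and -0.03 in 2954K against control, beside 0.01 over all genes. These shares count only members that passed the filter, and Egr3 passed it through its LED arrays.

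**Figure D1:**
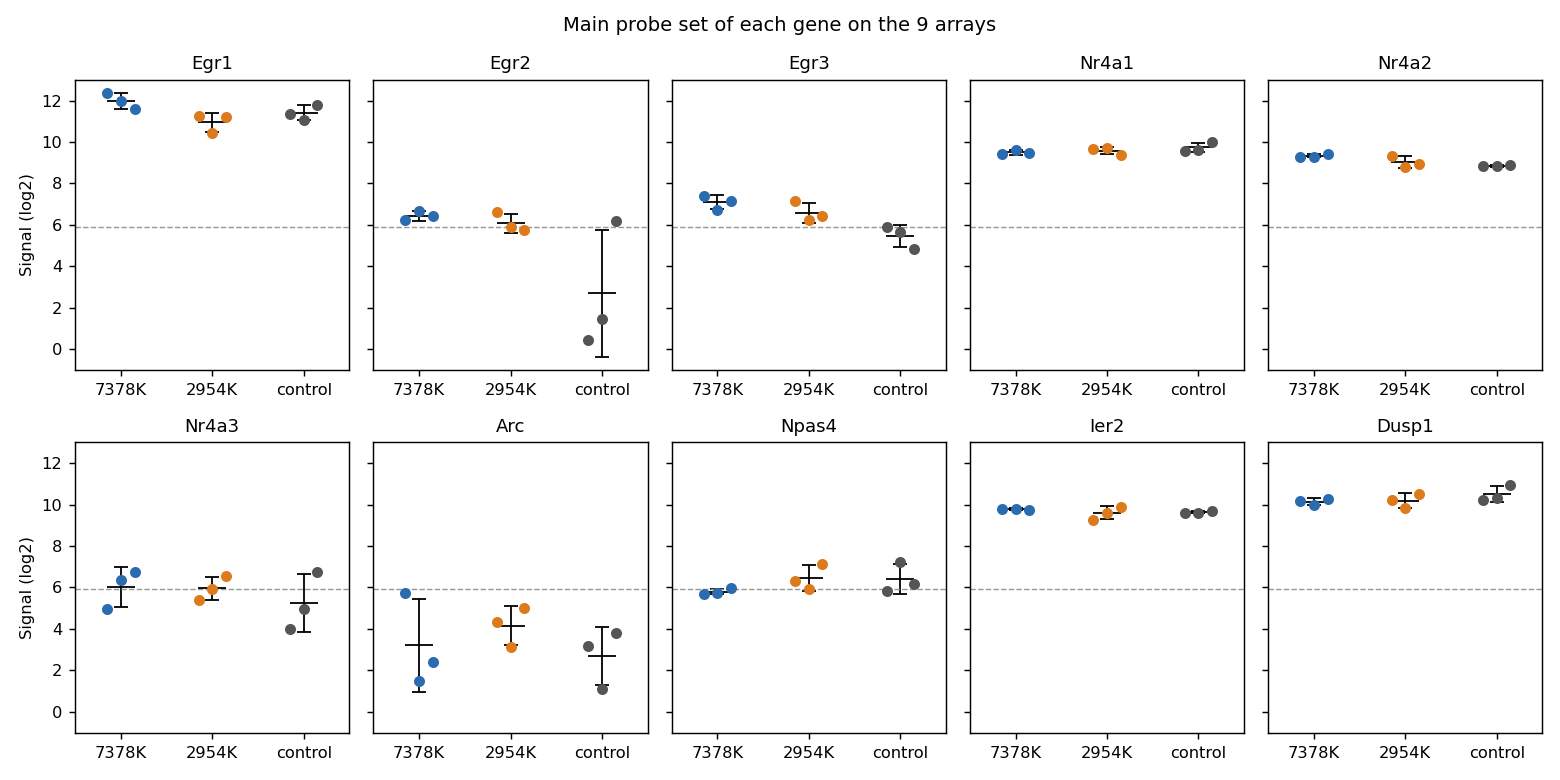
Log2 signal of the 10 genes on each of the 9 arrays, each gene by its brightest probe set, in the 7378K, 2954K and control groups from left to right in every panel. Dots are arrays, bars are the mean ± SD of 3 arrays and the dashed line is the filter value of 5.91; Egr3 lies above that line on all 6 LED arrays and below it on all 3 control arrays.

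Some properties of the arrays moved with the groups. The 3' minus 5' log2 difference of Gapdh and beta-actin, a measure of RNA integrity and labelling, was 1.55 to 1.80 in the 7378K group, 0.21 to 2.78 in the 2954K group and 0.20 to 0.42 in the control group. The same difference for dap, a bacterial transcript added before labelling, was 2.70 to 2.77 in the 7378K group, 1.34 to 3.02 in the 2954K group and 1.37 to 1.81 in the control group. Of 7 microglia markers 6 were tested, and 4 rose in each LED group, where 2.36% (7378K) and 1.03% (2954K) of all genes rose. The log2 summed signal of the 7 was 12.68 to 12.89 under 7378K, 12.64 to 12.79 under 2954K and 10.99 to 11.49 in controls. The sum of rod markers overlapped between groups, at 16.66 to 16.87 under 7378K, 16.58 to 16.97 under 2954K and 16.75 to 17.08 in controls. Amacrine markers summed to 14.55 to 14.61 under 7378K, 14.25 to 14.60 under 2954K and 14.43 to 14.55 in controls. Ganglion cell markers summed to 14.00 to 14.04 under 7378K, 13.86 to 14.04 under 2954K and 13.94 to 14.07 in controls, and Müller glia markers to 15.23 to 15.45 under 7378K, 15.17 to 15.37 under 2954K and 15.17 to 15.27 in controls. Retinal neurons were thus present by their markers on all arrays. Rpe65, the retinoid isomerase of the pigment epithelium, gave 9.73 or more on every array, and the sum of 6 lens markers peaked within each group on replicate 3, with 12.02 on 7378K 3, 14.26 on 2954K 3 and 16.78 on control 3. In pooled tissue, fewer cells of a type and less RNA per cell cannot be told apart.

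Egr3, a zinc finger factor downstream of neuronal activity, gave 7.41, 6.71 and 7.17 in the 7378K pools, 7.13, 6.22 and 6.40 in the 2954K pools, and 5.89, 5.65 and 4.83 in the control pools. All 6 LED pools lay above all 3 control pools, and the control pools all lay below the filter value of 5.91. The 7378K mean lay 2.28-fold above that value, which is a cut on mean signal and not a limit of detection. The fit to the signals as deposited gave 1.64 ± 0.40 (SE), with a 95% interval of 0.77 to 2.51 and an adjusted p of 0.0446 from limma, or 0.0764 with no filter on dim genes. Groups without overlap were common, at 36.4% of all genes in this comparison (21.6% higher, 14.8% lower), where 3 of 7 members (Egr3, Nr4a2 and Ier2) were among them, and 15.2% in 2954K against control (7.68% higher, 7.53% lower), where Egr3 was 1 of 7. The 2954K mean lay 1.60-fold above the filter value. Its fitted difference from control was 1.13, with an interval of 0.26 to 2.00 and an adjusted p of 0.256.

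The call for Egr3 held in 6 of 20 alternative settings. A second Egr3 probe set gave 7.02, 6.65 and 6.48 in the 7378K pools, 7.02, 6.22 and 3.84 in the 2954K pools, and 5.06, 7.01 and 6.84 in the control pools. Its groups overlapped, and when every probe set was fitted it differed from control by 0.41 under 7378K (adjusted p = 0.791) and by -0.61 under 2954K (adjusted p = 0.759). With the mean of both probe sets Egr3 differed by 1.03 under 7378K with an adjusted p of 0.253. Adding the 3' minus 5' difference to the fit gave 1.18 with an adjusted p of 0.456, and adding that of dap gave 1.17 with an adjusted p of 0.61. Of the 9 fits without 1 array, 7 ended the call: those without any one of the 7378K arrays (adjusted p of 0.0843 to 0.186), any one of the control arrays (0.0692 to 0.117) or 2954K 3 (0.058). It held without 2954K 1 (0.0221) or 2954K 2 (0.0278). Among the 2954K arrays, the array with the highest 3' minus 5' difference (2954K 1, 2.78) had the highest Egr3 signal of 7.13 and the array with the lowest (2954K 2, 0.21) had the lowest, 6.22. The part of that difference and of the microglia markers in the Egr3 signal was not tested.

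**Figure D2:**
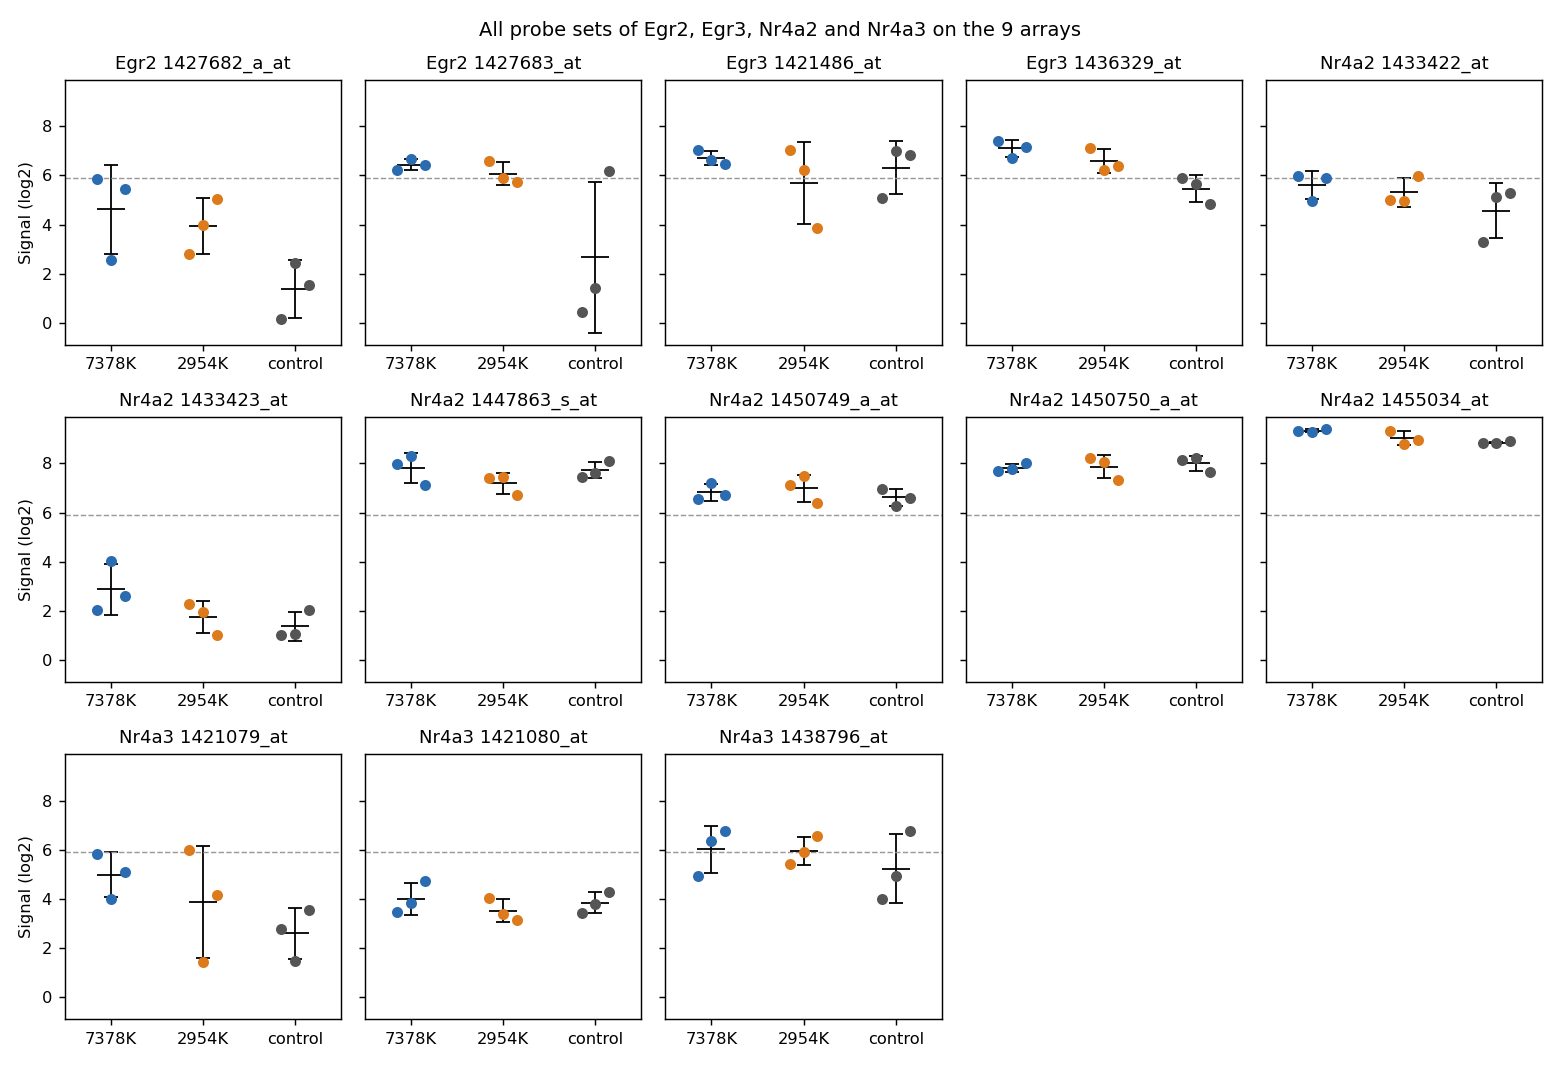
Log2 signal on the 9 arrays for the probe sets of the members that have more than 1, with the 7378K, 2954K and control arrays from left to right. Dots are arrays, bars are mean ± SD of 3 arrays and the dashed line is the filter value of 5.91; the 2 probe sets of Egr3 differ in whether the control arrays lie below the LED arrays.

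Egr1, the founding member of the family, gave 12.37, 11.98 and 11.58 in the 7378K pools, 11.26, 10.43 and 11.21 in the 2954K pools, and 11.37, 11.09 and 11.79 in the control pools. Every 7378K pool lay above every 2954K pool, whereas the control pools spanned the gap between them and overlapped with both. Within each group Egr1 ranked as the 3' minus 5' difference did. That difference was 1.80, 1.67 and 1.55 in the 7378K pools and 2.78, 0.21 and 1.05 in the 2954K pools. In the control pools it was 0.33, 0.20 and 0.42. The part of array quality in Egr1 was not tested beyond the fits with quality terms given below. The means were 11.98 ± 0.40 under 7378K, 10.96 ± 0.46 under 2954K and 11.42 ± 0.35 in controls (SD, n = 3 each). Egr1 thus differed from control by 0.56 under 7378K (95% interval 0.02 to 1.10, adjusted p = 0.21) and by -0.45 under 2954K (-1.0 to 0.09, adjusted p = 0.462).

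In 7378K against 2954K the difference in Egr1 was 1.01, a 2.02-fold higher mean with a 95% interval of 0.47 to 1.56 on the log2 scale. Its unadjusted p of 0.00162 ranked 12 among the 12761 genes, and its adjusted p was 0.978. Groups without overlap made up 8.56% of all genes in this comparison (5.27% higher, 3.28% lower), and Egr1 was 1 of 7 members among them. Over all alternative settings the difference stayed between 0.70 and 1.33, and its adjusted p between 0.0836, without 2954K 1, and 1. With the 3' minus 5' difference in the fit it was 0.91, and with that of dap 0.70. Under that dap term the difference from control changed sign, to -0.08 in 7378K against control.

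Egr2, also known as Krox20, was dim. Its brighter probe set gave 6.21, 6.67 and 6.43 in the 7378K pools, 6.61, 5.88 and 5.74 in the 2954K pools, and 0.43, 1.43 and 6.18 in the control pools. Of the control pools, 2 were far below all others and the remaining one lay among the LED pools, so that the groups overlapped. The second Egr2 probe set gave 5.87, 2.56 and 5.43 in the 7378K pools, 2.80, 3.96 and 5.06 in the 2954K pools, and 0.14, 2.45 and 1.56 in the control pools. Here all 6 LED pools lay above the control pools, with no array above the filter value. The step was small, from 2.45 on control 2 to 2.56 on 7378K 2, at the 10.8 percentile of all probe sets. By their main probe sets, 5.84% of all genes tested had every LED pool above every control pool. Without the filter on dim signals the brighter set differed by 3.76 under 7378K (adjusted p = 0.117) and by 3.40 under 2954K (adjusted p = 0.299). At signals as low as those of control 1 and control 2 a log2 difference has no stable size. The mouse Egr2 promoter, from RefSeq on GRCm38.p6 at chr10:67537619-67537918 on the plus strand, is shown because both kinds of element named above stand in it. It runs from 250 bases before to 50 bases after a start site, in capitals are TGACG on either strand (read as CGTCA on the other) at 111 and 55 bases before the start and, between them at 72 bases, a match to the CArG box.
Egr2: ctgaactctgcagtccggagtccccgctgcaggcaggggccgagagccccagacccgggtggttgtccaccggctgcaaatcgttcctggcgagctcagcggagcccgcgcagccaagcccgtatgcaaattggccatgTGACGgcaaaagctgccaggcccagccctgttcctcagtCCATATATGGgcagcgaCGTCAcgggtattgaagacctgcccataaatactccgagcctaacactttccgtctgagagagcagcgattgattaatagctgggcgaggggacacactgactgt

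Egr4 and the corepressors Nab1 and Nab2, which bind EGR proteins, belong to the same family circuit, and are named here after their values were seen. Of this list 3 were tested in each comparison and 0 were called by limma, with 2 of 3 at an unadjusted p under 0.05 in 7378K against control (22.6% of all genes) and 0 of 3 in 2954K against control (13.1%). Nab1 gave 9.26, 9.23 and 9.24 in the 7378K pools, 9.15, 10.00 and 9.90 in the 2954K pools, and 9.93, 9.92 and 10.06 in the control pools. All 7378K pools and 2954K 1 were low, and the other 2954K pools lay with the controls. Its difference of -0.73 under 7378K had an adjusted p of 0.053, and 2954K 1, the low array of its group, had the highest 3' minus 5' difference of all 9. Nab2 was higher by 0.49 (adjusted p = 0.166) in the same comparison. Egr4 gave 3.53, 6.20 and 6.38 in the 7378K pools and 6.99, 6.38 and 6.69 in the control pools, and the groups overlapped. Its 7378K mean (5.37) lay below the filter value because of the low signal on 7378K 1, against a mean of 6.69 in controls. The fitted difference was -1.315, with an interval of -2.84 to 0.21 that includes no change (adjusted p = 0.29 from limma). The size of this difference is uncertain at such a signal.

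Nr4a2 (Nurr1), a nuclear receptor needed for dopamine neurons and expressed by a subset of amacrine cells, gave 9.30, 9.29 and 9.41 in the 7378K pools, 9.34, 8.79 and 8.96 in the 2954K pools, and 8.82, 8.83 and 8.89 in the control pools. All 7378K pools lay above the control pools, and the 2954K pools spread over both. The difference of 0.48 under 7378K, 1.40-fold, had a 95% interval of 0.16 to 0.81 and an adjusted p of 0.0922. Under 2954K the difference was 0.18 (-0.15 to 0.51, adjusted p = 0.641). When 7378K and control alone were fitted, Nr4a2 was called with an adjusted p of 0.0145, and it was also called without 2954K 1 (0.0231) or without 2954K 2 (0.0441). Calls also rose over all 12761 genes in these fits, to 2174, 1517 and 1211, against 449 in the main fit. With the 3' minus 5' difference in the fit the difference was 0.20 (adjusted p = 0.74). As with Egr3, 2954K 1 was the highest of its group and 2954K 2 the lowest, and the part of the array quality in this was not tested.

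Nr4a2 had 5 further probe sets. The 3 above the filter differed from control under 7378K by 0.09, 0.20 and -0.18, with adjusted p from 0.732 to 0.906 when every probe set was fitted. Under 2954K the same 3 differed by -0.52, 0.37 and -0.12, with adjusted p from 0.526 to 0.868 in that limma fit. In the first of these all 2954K pools lay below all control pools, as in 7.53% of all genes by their main probe sets. The other 2 were dim, with no signal above 6.0 in any LED or control pool.

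Nr4a1 (Nur77), the receptor of the family best known from activated lymphocytes, gave 9.40, 9.60 and 9.48 in the 7378K pools, 9.66, 9.69 and 9.39 in the 2954K pools, and 9.57, 9.64 and 10.01 in the control pools. The groups overlapped, and control 3 was the highest. The difference was -0.24 under 7378K (95% interval -0.55 to 0.07, adjusted p = 0.344) and -0.16 under 2954K (-0.47 to 0.15, adjusted p = 0.67). A rise of more than 0.155 under either lamp lay outside those intervals. Without the third arrays, control 3 among them, the 2954K difference was 0.07.

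Nr4a3 (Nor1), the last receptor of the family, lay just below the filter, at the 38.0 percentile of all probe sets. Its brightest probe set gave 4.95, 6.34 and 6.77 in the 7378K pools, 5.42, 5.91 and 6.54 in the 2954K pools, and 4.0, 4.94 and 6.76 in the control pools, and the groups overlapped. Without the filter it differed by 0.78 under 7378K (adjusted p = 0.639) and 0.72 under 2954K (adjusted p = 0.766). Its other 2 probe sets also lay below the filter. One gave 5.83, 4.01 and 5.09 in the 7378K pools, 5.99, 1.45 and 4.17 in the 2954K pools, and 2.79, 1.46 and 3.53 in the control pools, with the 7378K pools above the controls and the 2954K pools on both sides of them. The groups overlapped in the other. By their main probe sets, 21.6% of all genes tested had every 7378K pool above every control pool.

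The promoters of the 3 NR4A genes are shown because they hold the same short element many times over. They are RefSeq sequences on GRCm38.p6 from 250 bases before to 50 bases after the start site, at chr15:101266596-101266895 on the plus strand for Nr4a1, chr2:57123954-57124253 on the minus strand for Nr4a2 and chr4:48045055-48045354 on the plus strand for Nr4a3. Capitals mark each TGACG, the core of the CRE, on either strand (CGTCA on the other).
Nr4a1: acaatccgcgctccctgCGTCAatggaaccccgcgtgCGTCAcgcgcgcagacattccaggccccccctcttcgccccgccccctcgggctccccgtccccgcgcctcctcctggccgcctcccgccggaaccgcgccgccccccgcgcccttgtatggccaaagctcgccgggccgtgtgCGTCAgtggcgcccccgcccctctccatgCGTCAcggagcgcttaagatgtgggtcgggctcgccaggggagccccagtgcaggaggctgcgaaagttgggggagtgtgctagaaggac
Nr4a2: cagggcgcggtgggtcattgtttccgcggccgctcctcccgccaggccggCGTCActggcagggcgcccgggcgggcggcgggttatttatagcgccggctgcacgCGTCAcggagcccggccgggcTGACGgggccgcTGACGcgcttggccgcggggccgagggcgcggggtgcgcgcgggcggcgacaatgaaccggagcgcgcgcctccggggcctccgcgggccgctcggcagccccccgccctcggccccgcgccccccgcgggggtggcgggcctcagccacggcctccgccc
Nr4a3: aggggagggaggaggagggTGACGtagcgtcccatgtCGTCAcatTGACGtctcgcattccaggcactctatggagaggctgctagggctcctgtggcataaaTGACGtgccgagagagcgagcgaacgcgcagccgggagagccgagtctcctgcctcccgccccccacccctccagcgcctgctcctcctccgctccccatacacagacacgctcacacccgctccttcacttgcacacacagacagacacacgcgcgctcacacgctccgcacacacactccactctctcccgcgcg

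Each of the 3 windows held 4 copies, at 233, 213, 69 and 40 bases before the start in Nr4a1, at 200, 144, 123 and 111 in Nr4a2, and at 231, 213, 205 and 147 in Nr4a3. At least 4 copies stood in 76 of 32851 promoter windows of this length, or 0.231%. In all, promoters of 6 member genes were in the table (Egr2, Nr4a1, Nr4a2, Nr4a3, Npas4 and Dusp1), and TGACG stood in 6 of 6, against 23% of 27025 genes. The full palindrome TGACGTCA, which holds TGACG on both strands, stood in Dusp1 alone, at 143 bases before the start, against 2.03% of genes. The CArG box stood in Egr2 alone (1.81% of genes), and TATAAA in 1 of 6 (15.7%). None of the 6 held the AP-1 site TGAGTCA (5.95% of genes), the EGR site GCGTGGGCG (0.707%) or the NR4A site AAAGGTCA (1.7%), all searched on both strands. The windows were not matched for base composition, and a match to letters is not a site of binding.

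Arc, a synaptic protein that assembles into capsids and drives removal of glutamate receptors, gave 5.72, 1.49 and 2.39 in the 7378K pools, 4.33, 3.14 and 5.01 in the 2954K pools, and 3.16, 1.10 and 3.80 in the control pools. Every value lay below the filter value and the groups overlapped, so that no change could be read at this signal. Npas4, a neuron-specific bHLH-PAS factor induced by calcium entry, lay just above the filter, with 5.71, 5.75 and 5.96 in the 7378K pools, 6.30, 5.94 and 7.14 in the 2954K pools, and 5.84, 7.24 and 6.15 in the control pools. The 7378K pools were low and close together, and the groups overlapped. The 7378K mean of 5.80 lay below the filter value, against a control mean of 6.41, so the size of the difference is uncertain at this signal. The fitted difference was -0.61 under 7378K (95% interval -1.58 to 0.37, adjusted p = 0.451) and 0.05 under 2954K (-0.93 to 1.02, adjusted p = 0.975).

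Ier2, a nuclear early response protein, gave 9.82, 9.80 and 9.77 in the 7378K pools, 9.28, 9.62 and 9.91 in the 2954K pools, and 9.62, 9.59 and 9.69 in the control pools. All 7378K pools lay above all control pools, by a small step, while the 2954K pools reached beyond both. The fit, which takes 1 spread for all groups, gave 0.16 under 7378K (95% interval -0.16 to 0.48, adjusted p = 0.552) and -0.03 under 2954K (-0.35 to 0.29, adjusted p = 0.957).

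Dusp1, the phosphatase that switches off MAP kinases and so limits the early response, gave 10.18, 9.98 and 10.29 in the 7378K pools, 10.23, 9.84 and 10.53 in the 2954K pools, and 10.23, 10.33 and 10.96 in the control pools. The groups overlapped, and control 3 stood highest. Dusp1 differed by -0.36 under 7378K (95% interval -0.80 to 0.09, adjusted p = 0.33) and by -0.31 under 2954K (-0.75 to 0.14, adjusted p = 0.546). A rise above 0.1424 was outside both intervals.

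**Figure D3:**
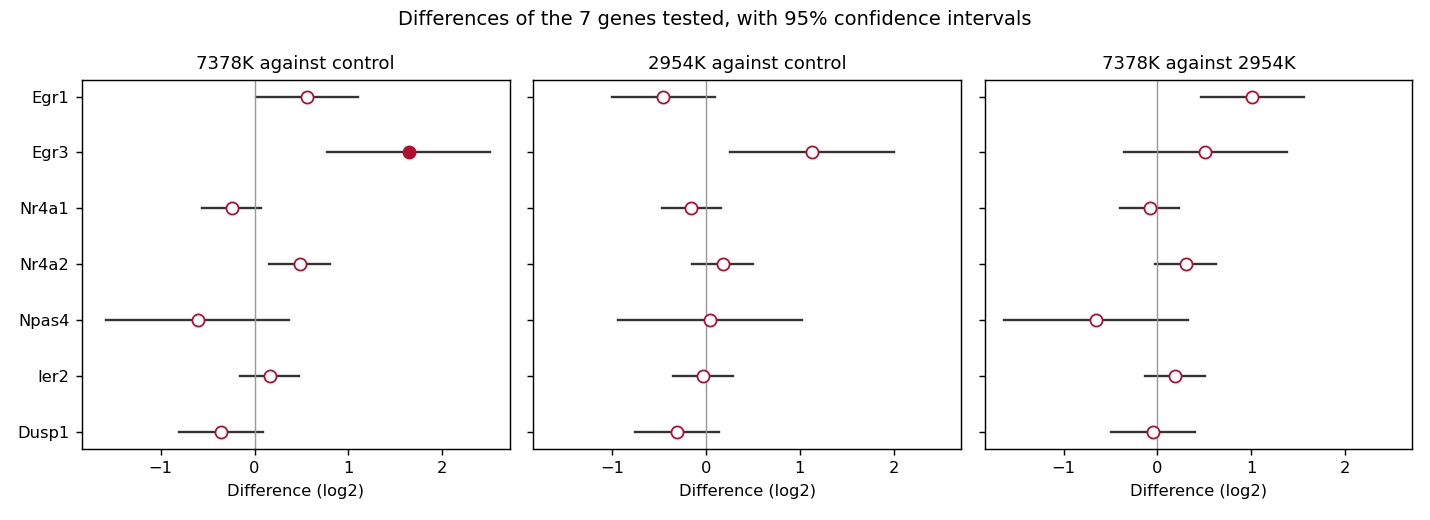
Log2 differences of the 7 tested members with their 95% intervals from the limma fit, for 7378K against control, 2954K against control and 7378K against 2954K, filled where the adjusted p is under 0.05. The interval of Egr3 in 7378K against control lies between 0.77 and 2.51, and that of Egr1 in 7378K against 2954K between 0.47 and 1.56; the intervals of Nr4a1, Npas4, Ier2 and Dusp1 include 0 in every comparison.

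Between the lamps, the 6 members other than Egr1 had unadjusted p values of 0.0652 or more. In 7378K against 2954K the log2 differences were 0.51 for Egr3 (95% interval -0.36 to 1.38), 0.30 for Nr4a2 (-0.02 to 0.63), 0.19 for Ier2 (-0.13 to 0.51), -0.05 for Dusp1 (-0.50 to 0.40), -0.08 for Nr4a1 (-0.40 to 0.23) and -0.65 for Npas4 (-1.63 to 0.33), whose 7378K mean lay below the filter value. Their adjusted p values from limma lay between 0.978 and 0.989. The intervals leave room for differences of up to 1.38 for Egr3 and 1.63 in size for Npas4, so the lamps were not shown to act alike.

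Of other genes of the early response, most did not pass, and Atf3, Junb and Gadd45b had the smallest p. Lists of 89 further activity-regulated genes, their regulators and their targets had 84 measured and 79 tested. The lists were chosen with earlier results of these data known. Their counts beside those of all genes are a description and not an independent test. In 7378K against control 6 of 79 rose and 2 fell, where 2.36% of all genes rose and 1.16% fell. In 2954K against control 6 rose and 0 fell, where 1.03% of all genes rose and 0.188% fell, and with the LED mean 6 rose and 2 fell, where 2.41% rose and 1.05% fell. In 7378K against 2954K 0 of 79 were called by limma, and 4 had an unadjusted p under 0.05, as had 4.07% of all genes. The median difference of the 79 was 0.16 under 7378K and 0.06 under 2954K, beside 0.04 and 0.01 over all genes. These counts moved with single arrays: without 2954K 1 or 2954K 2 they were 18 and 15 called in 7378K against control, and without 7378K 1 they were 4. Over all 12761 genes, calls in these fits were 1517, 1211 and 144, against 449 in the main fit. In 2954K against control the counts were 2 without 2954K 3 or control 1 and 3 without control 2 or 7378K 2. Calls over all genes were then 81, 85, 79 and 107, against 156.

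Of 8 AP-1 genes tested 3 rose in each LED group, where 2.36% of all genes rose under 7378K and 1.03% under 2954K. The list median was 1.01 under 7378K and 0.77 under 2954K, beside 0.04 and 0.01 over all genes. Atf3, a stress-induced repressor of the ATF family, gave 9.84, 9.57 and 9.67 in the 7378K pools, 9.21, 9.38 and 10.08 in the 2954K pools, and 7.90, 7.09 and 7.80 in the control pools. All LED pools lay well above the controls, by 2.10 under 7378K (adjusted p = 0.000608) and 1.96 under 2954K (adjusted p = 0.00159), and Atf3 was called in 21 of 21 alternatives in both. Junb, a component of AP-1, gave 9.10, 9.15 and 8.79 in the 7378K pools, 8.67, 8.55 and 8.97 in the 2954K pools, and 7.40, 7.95 and 7.39 in the control pools. It rose by 1.43 under 7378K (adjusted p = 0.00201) and 1.15 under 2954K (adjusted p = 0.0138), and its 7378K call ended with the dap term (0.0714). The 2954K call of Junb ended without 2954K 3 (0.0824), control 1 (0.0751) or the third arrays (0.20), with the groups compared only (0.0753) and with the 3' minus 5' term (0.064). Jun, the partner of Fos in AP-1, rose by 0.73 under 7378K (adjusted p = 0.0107) and by 0.64 under 2954K (adjusted p = 0.0385), its 7378K call ending without 7378K 1 (0.0748), 7378K 3 (0.0564) or the third arrays (0.124) and its 2954K call holding in 9 of 21 alternatives. Fos, the classical early response gene, named here after its values were seen, gave 10.97, 11.03 and 10.75 in the 7378K pools, 10.67, 10.37 and 10.96 in the 2954K pools, and 9.96, 10.76 and 10.92 in the control pools. Its groups overlapped, with a difference of 0.37 under 7378K (adjusted p = 0.345).

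Of 17 IER and other early response genes tested, 2 rose and 1 fell under 7378K, and 2 rose and 0 fell under 2954K. Over all genes, 2.36% rose and 1.16% fell under 7378K, and 1.03% rose and 0.188% fell under 2954K. Gadd45b, a stress-induced protein linked to DNA demethylation in neurons, gave 9.80, 10.02 and 9.54 in the 7378K pools, 9.54, 9.17 and 10.08 in the 2954K pools, and 7.73, 8.01 and 8.13 in the control pools. It stood above control on all 6 LED arrays, by 1.83 under 7378K (adjusted p = 0.000609) and 1.64 under 2954K (adjusted p = 0.00202). The 7378K call of Gadd45b ended with the dap term (0.0604) and the 2954K call with the mean of its probe sets (1.03, adjusted p = 0.0597). Its relative Gadd45a went the other way, with 10.04, 10.27 and 10.22 in the 7378K pools, 10.25, 10.52 and 10.35 in the 2954K pools, and 10.89, 10.76 and 10.80 in the control pools. Gadd45a fell by 0.64 under 7378K (adjusted p = 0.00763), a call that ended without 7378K 1 (0.0586) or the third arrays (0.11), with the 3' minus 5' term (-0.51, adjusted p = 0.104) and with the dap term (-0.48, adjusted p = 0.253). Ccn1, a secreted matrix protein, rose by 0.99 under 7378K (adjusted p = 0.0373), a call that held in 8 of 19 alternatives, and by 1.20 under 2954K (adjusted p = 0.0268), where it held in 9 of 19.

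Of 7 other dual-specificity phosphatases, 1 was called in each LED group, where 3.52% of all genes were called under 7378K and 1.22% under 2954K. Dusp8, which acts on JNK and p38, rose by 0.67 under 7378K (adjusted p = 0.00345) and by 0.54 under 2954K (adjusted p = 0.0241). With the mean of its probe sets the sign turned, to -0.72 under 7378K and -0.68 under 2954K. Of its further probe sets, 1 differed by 0.41 under 7378K and 0.19 under 2954K, and another by -3.25 and -2.76. None of these passed when all probe sets were fitted without the filter (adjusted p of 0.19 or more from limma). The 7378K call of Dusp8 also ended with the dap term (0.133) and without the third arrays (0.085), and the 2954K call held in 7 of 21 alternatives. Among 17 upstream regulators Mef2c, an activity-dependent transcription factor, fell by 0.43 under 7378K (adjusted p = 0.0444), where 1.16% of all genes fell. This call held in 8 of 21 alternatives. Of 12 other early transcription factors, 12 neuronal late response genes and 3 RXR partners of the NR4A receptors tested, 0 were called by limma in any LED group against control, with 2, 3 and 1 at an unadjusted p under 0.05 under 7378K, where 22.6% of all genes passed, and 1, 0 and 1 under 2954K, where 13.1% passed. Over the same arrays the microglia markers and the 3' minus 5' difference were higher in the LED groups, with the 3' minus 5' difference of 2954K 2 as low as in controls, and their part in these counts was not tested.

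**Figure D4:**
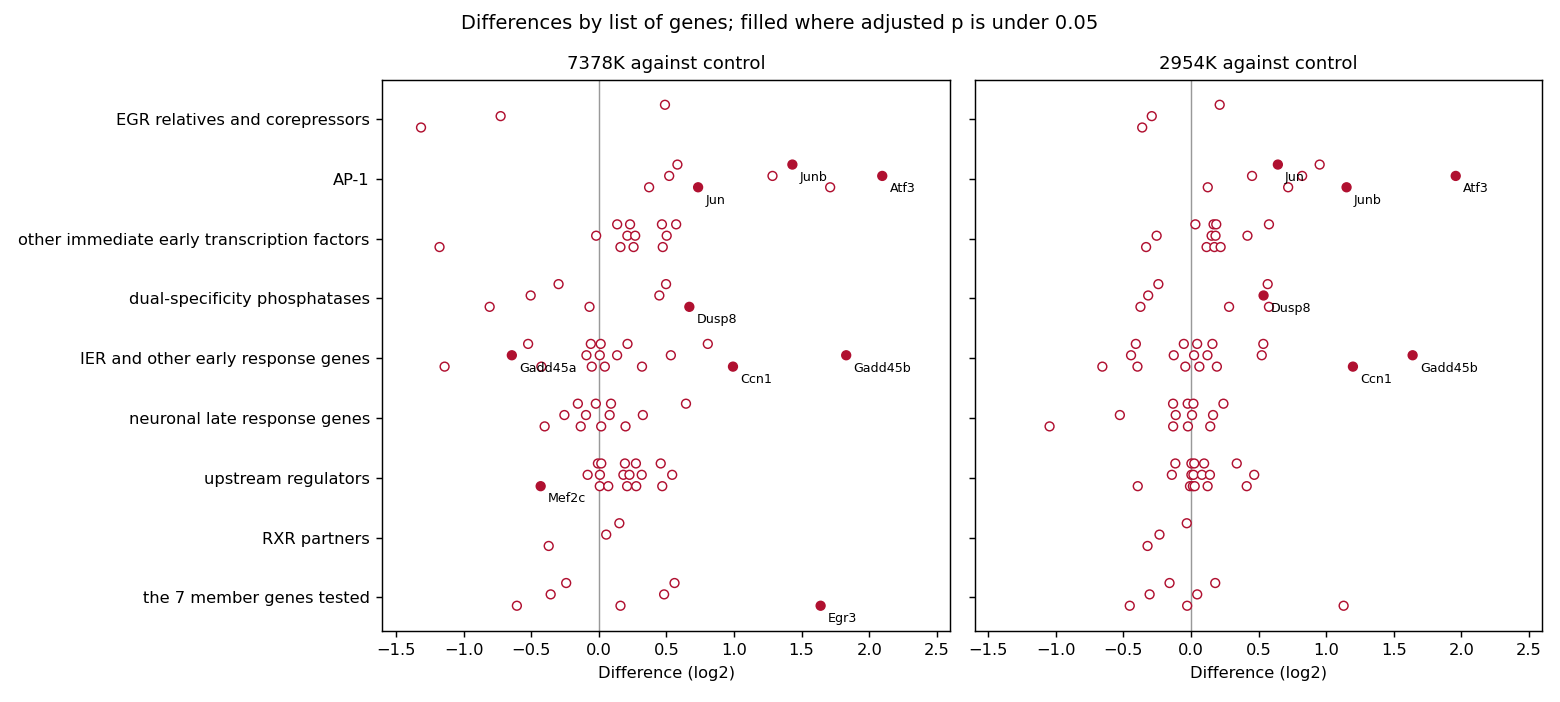
Log2 differences of the tested genes of each activity-regulated list, for 7378K against control and 2954K against control, with the members in a row of their own. Each circle is a gene, filled and named where its adjusted p is under 0.05; the AP-1 list has medians of 1.01 and 0.77, and the members 0.16 and -0.03.

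Genes with the profiles nearest to Egr1 and Egr3 were found by the root mean square difference of log2 profiles over the 9 arrays, each centred on its own mean, among 12130 genes. For Egr1 they were Dynlrb2 (0.216), Pkp1 (0.248) and Evc (0.248), beside a median of 0.557 over all genes. Dynlrb2 gave 7.64, 7.81 and 7.33 in the 7378K pools, 7.25, 6.11 and 6.64 in the 2954K pools, and 7.01, 6.49 and 7.52 in the control pools, with a difference of 0.59 under 7378K (adjusted p = 0.338). For Egr3 they were Shisa6 (0.317), Grik3 (0.320) and Med9os (0.329), beside a median of 0.798. Of these, Grik3, a kainate receptor subunit, rose by 1.21 (adjusted p = 0.0138) and Med9os by 1.27 (adjusted p = 0.0016) under 7378K, and Shisa6 differed by 1.06 (adjusted p = 0.141). These genes were picked for likeness to Egr3 on the same arrays. A higher level under LED thus follows from the choice, and these p values give no support. Arrays that share a group or an array quality share part of such a profile, so that the likeness is a description of these 9 arrays.

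**Figure D5:**
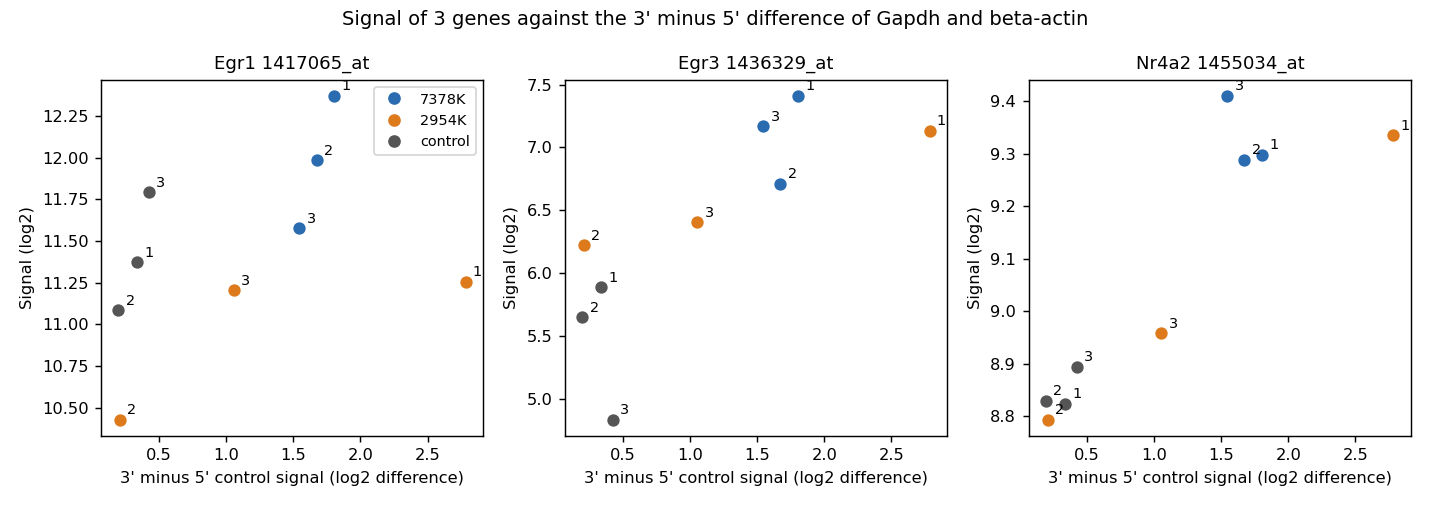
Log2 signal of Egr1, Egr3 and Nr4a2 on each array against that array's 3' minus 5' log2 difference of Gapdh and beta-actin. Dots are arrays, coloured by group and numbered by replicate; the 7378K arrays lie at 1.55 to 1.80, the 2954K arrays at 0.21 to 2.78 and the control arrays at 0.20 to 0.42, so that only 2954K 2 shares the controls' range.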

How the data were processed

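Retinal RNA of 9 pools, 3 per group, was hybridised to 1 array each. The deposited values were log2 signals per probe set, made by the authors with MAS5 and affy, per the submitters' processing notes, which give no version, role or order. On each array the linear signal had a 2% trimmed mean of 500, and the values were used as deposited. Detection calls were not used. Precision is limited by how few arrays there were.

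Of 45101 probe sets, 64 were controls, 34945 had 1 gene symbol in the platform annotation, 932 several and 9160 none. By gene identifier, 34741 of the 34945 had a match in RefSeq (GRCm38.p6), with 0 symbols changed. Each gene was taken by its probe set with the highest mean over 9 arrays, and those averaging under the 40th percentile of all probe sets (5.91) were left out. One mean per group was fitted with limma 3.58.1 (eBayes with an intensity trend, 6 residual degrees of freedom) in R 4.3.3, with the package data.table (version 1.17.8), and with Benjamini-Hochberg adjustment over 12761 genes per comparison. With 3 pools per group, the p values measure the spread between pools. The fit was tested on simulated data.

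The named genes are the 10 members with every probe set, up to 4 called genes of each list and comparison by smallest p, and the 3 genes nearest in profile to Egr1 and to each called member. The members and lists were chosen with earlier results of these data known. Each value was recomputed with other filters, probe set rules, normalisation, covariates and sets of arrays. Promoters were those RefSeq lists. Figures were drawn with matplotlib 3.10.9.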

Additional observations from a re-analysis of the deposited data

Results flagged for a closer look

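The pools of the 2 lamps lay on opposite sides of the control mean of Egr1, although neither difference from control passed (0.56 under 7378K, adjusted p = 0.21, and -0.45 under 2954K, adjusted p = 0.462). All 3 7378K pools lay above the mean of the controls and all 3 2954K pools below it, and the difference between the lamps was 1.01 on the log2 scale, with an unadjusted p of 0.00162 and an adjusted p of 0.978 from limma. The control pools overlapped with both LED groups. The 3' minus 5' difference was 1.55 to 1.80 under 7378K and spread more widely under 2954K, from 0.21 to 2.78. Within each group Egr1 ranked as that difference did. The part of the array quality measures in Egr1 was not tested beyond the fits with these terms. Those gave 0.91 with the 3' minus 5' term and 0.70 with dap. With dap the difference of 7378K from control was -0.08. With groups of 3, no array was tested as an outlier.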

How the results depend on the processing

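Values were recomputed under 21 alternatives, fewer for genes that an alternative left out (20 for Egr3 and Npas4, 19 for Ccn1). Where every probe set was fitted, the one with the smallest p in a comparison stood for its gene. Of 580 values of member genes, 537 kept their direction and side of the threshold, 14 lost a call, 6 gained one and 23 changed sign. The count of members called in 7378K against control (1) was 0 when probe sets were averaged per gene, with every probe set fitted, with no filter, with the filter at the 60th percentile (which leaves out Egr3), with no intensity trend, with the 3' minus 5' or the dap term and without the third arrays. It was 2 when the groups compared alone were fitted and 0 to 2 without 1 array. For the LED mean (0) it was 1 with the replicate block or quantile normalisation and 0 to 1 without 1 array, and in 2954K against control and 7378K against 2954K it was 0 throughout. Of the 79 other genes, the count for 7378K against control (8) was 5 with the mean of probe sets or the 3' minus 5' term, 21 with the groups compared only, 2 with dap, 3 without the third arrays and 4 to 18 without 1 array. For 2954K against control (6) it was 3 with the mean of probe sets or the 3' minus 5' term, 2 with the groups compared only or without the third arrays, and 2 to 9 without 1 array. For 7378K against 2954K (0) it was 0 to 1, and for the LED mean (8) it was 5 with the mean of probe sets, 4 without the third arrays and 5 to 18 without 1 array. The cause of these shifts was not tested.

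Of the values that changed sign, 0 were called. They included Dusp8 with the mean of its probe sets (-0.72, -0.68 and -0.70 for the LED mean). Nr4a2 under 2954K changed with the 3' minus 5' term (-0.03) and with every probe set (-0.52, from a probe set other than its main one). Ier2 under 2954K changed with quantile normalisation (0.01), the 3' minus 5' term (0.13) and dap (0.07). Egr1 changed with the 3' minus 5' term (-0.33 for the LED mean) and dap (-0.43 for the LED mean, -0.08 under 7378K). Without the third arrays the values that changed sign were Nr4a1 (0.07) and Npas4 (-0.43) under 2954K and Dusp1 between the lamps (0.04). Without 1 array the ranges were -0.29 to 0.46 for Npas4 and -0.18 to 0.13 for Ier2 under 2954K, -0.23 to 0.12 for Dusp1 between the lamps, and -0.11 to 0.24 for Egr1, -0.56 to 0.14 for Npas4 and -0.01 to 0.15 for Ier2 in the LED mean.

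Over all genes, calls in 7378K against control ranged from 77 with dap to 2174 with the groups compared only, against 449. In 2954K against control they ranged from 68 with the groups compared only to 897 without 2954K 2, against 156, and between the lamps from 0 to 29 without 2954K 1. Same-numbered pools of different groups correlated at 0.06 to 0.33 in 9 pairs, 5 of them above 0.1, and differently numbered pools at -0.27 to 0.09 in 18 pairs, 0 of them above 0.1. Control 1 correlated most with 2954K 2 (0.092). The labels give no shared batch for a number, and not all same-numbered pairs exceeded 0.1, so the pools were not treated as paired, though the numbers may mark something shared. With the replicate block Egr3 in 7378K against control had an adjusted p of 0.0308, and of the other genes 11 were called in 7378K against control and 5 in 2954K against control.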
